A study of Homo sapiens with 4 samples.

Results

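The mRNAs of 10 proteins that write or read N6-methyladenosine (m6A), the most common internal mark of mRNA, were followed through RNA recovered with the nuclear exoribonuclease EXOSC10. They were chosen by symbol: METTL3, METTL14, WTAP and VIRMA of the writer complex, and the readers YTHDF1, YTHDF2, YTHDF3, YTHDC1, IGF2BP2 and IGF2BP3. All 10 were among the 12838 gene symbols of the deposited table, where a symbol can have several entries. The 10 symbols had 27 entries, which were added up per symbol.

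The cells were LM2-4175, a human breast carcinoma line selected from MDA-MB-231 for spread to the lung, grown under puromycin and hygromycin. All groups carried a dox-inducible construct for CerS4, a ceramide synthase. The groups were EXOSC10 immunoprecipitates of cells given doxycycline (5 ug/mL for 48 hrs), EXOSC10 immunoprecipitates of untreated cells, control IgG immunoprecipitates of cells given doxycycline, and control IgG immunoprecipitates of untreated cells. Each of these 4 groups had 1 library, and the EXOSC10 libraries with and without doxycycline were the study's primary comparison. No group lacked the construct, so what doxycycline does by itself and what CerS4 does cannot be told apart, and CERS4 had no entry through which its induction could be checked.

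In the nucleus, METTL3 transfers the methyl group while METTL14 holds the RNA, and WTAP and VIRMA recruit the pair to nuclear speckles and to sites in the transcript. The mark is read in the cytoplasm by the YTHDF proteins, of which YTHDF2 brings in the CCR4-NOT deadenylase to start mRNA decay, and in the nucleus by YTHDC1, which acts in splicing and export. IGF2BP2 and IGF2BP3 bind marked mRNAs and stabilise them. The libraries measured the mRNAs that encode these proteins and not the proteins or the mark.

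The table holds CPM, reads scaled to a common library total, from which reads were estimated by the value that 1 read is worth in each library. The libraries held between 3723286 and 7575128 reads, of which 56.3% (doxycycline EXOSC10) to 83.8% (doxycycline IgG) lay on ribosomal RNA genes, leaving 1023361 to 2408176 reads on other genes. Levels below are CPM divided by a TMM factor (trimmed mean of ratios), which was 2.54 and 1.24 for EXOSC10, with and without doxycycline, against 0.451 and 0.704 for IgG. Of 9 mesenchymal-like breast carcinoma markers, all 9 had entries, with summed levels of 661 and 852 scaled CPM in the EXOSC10 libraries with and without doxycycline, against 1477 and 1934 in the matching IgG libraries. Of 7 luminal markers, 5 had entries, with sums of 39.3 and 25.9 scaled CPM with EXOSC10 against 27.6 and 21.2 with IgG. Of 7 blood and endothelial markers, 2 had entries, with sums of 3.29 and 4.19 scaled CPM with EXOSC10 against 1.75 and 1.53 with IgG. The part of these markers in the results was not tested.

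The writer mRNAs differed widely in depth. METTL3, the catalytic subunit, had 96.0 and 27 reads with EXOSC10, with and without doxycycline, against 28 and 18.2 with IgG. METTL14, its RNA-binding partner, had 38 and 21 reads against 40 and 19. Both were thinly covered, and METTL14 stayed under 100 reads in every pair of libraries compared. WTAP, the adaptor of the complex, had 463 and 246 reads with EXOSC10, with and without doxycycline, against 650.3 and 511 with IgG. VIRMA, the large scaffold subunit, had 202 and 59.0 reads against 141 and 89.0. After scaling, WTAP stood at 33.1 and 46.9 scaled CPM with EXOSC10, with and without doxycycline, against 190.1 and 194.9 with IgG, so the antibodies did not overlap. VIRMA stood at 14.4 and 11.2 scaled CPM with EXOSC10, against 41.2 and 34.0 with IgG, again without overlap. In CPM before TMM, VIRMA had 36.7 and 13.9 with EXOSC10 against 18.6 and 23.9 with IgG, which overlap. After TMM, 29.4% of the 9579 genes with 10 reads in at least 2 libraries had both EXOSC10 libraries below both IgG libraries.

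Among the readers, YTHDF2 had 480.0 and 354 reads with EXOSC10, with and without doxycycline, against 990.0 and 628 with IgG. Its scaled levels were 34.3 and 67.4 CPM with EXOSC10, with and without doxycycline, against 289 and 240 CPM with IgG. The doxycycline EXOSC10 library was the lowest and the doxycycline IgG library the highest. YTHDF3, a paralog with overlapping roles in translation and decay, had 583 and 272 reads with EXOSC10 against 754 and 542 with IgG, or 41.7 and 51.8 against 220.5 and 207 scaled CPM. YTHDF1, the paralog linked to translation of marked mRNAs, had 154 and 61.0 reads with EXOSC10, with and without doxycycline, against 32 and 22 with IgG. Its scaled levels of 11.01 and 11.6 CPM with EXOSC10 lay above the 9.36 and 8.39 CPM with IgG, and it was the only member of the 10 with both EXOSC10 libraries above both IgG libraries. The share of all genes with this order was not counted. Among the 3778 non-ribosomal genes with 100 to 300 reads over the 4 libraries, YTHDF1 among them, 65.3% had a mean EXOSC10 over IgG ratio above 0. The nuclear reader YTHDC1 had 248 and 80 reads with EXOSC10 against 134 and 115 with IgG, or 17.7 and 15.2 scaled CPM with EXOSC10 against 39.2 and 43.9 with IgG. IGF2BP2 had 415 and 165 reads with EXOSC10, with and without doxycycline, against 218 and 276 with IgG, or 29.7 and 31.4 against 63.7 and 105 scaled CPM. IGF2BP3 had 78.1 and 20.6 reads with EXOSC10 against 33.7 and 9.70 with IgG, and its antibodies overlapped at 5.59 and 3.92 against 9.85 and 3.70 scaled CPM. Transcript lengths were not used here, so levels are compared between libraries and not between genes.

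**Figure D1:**
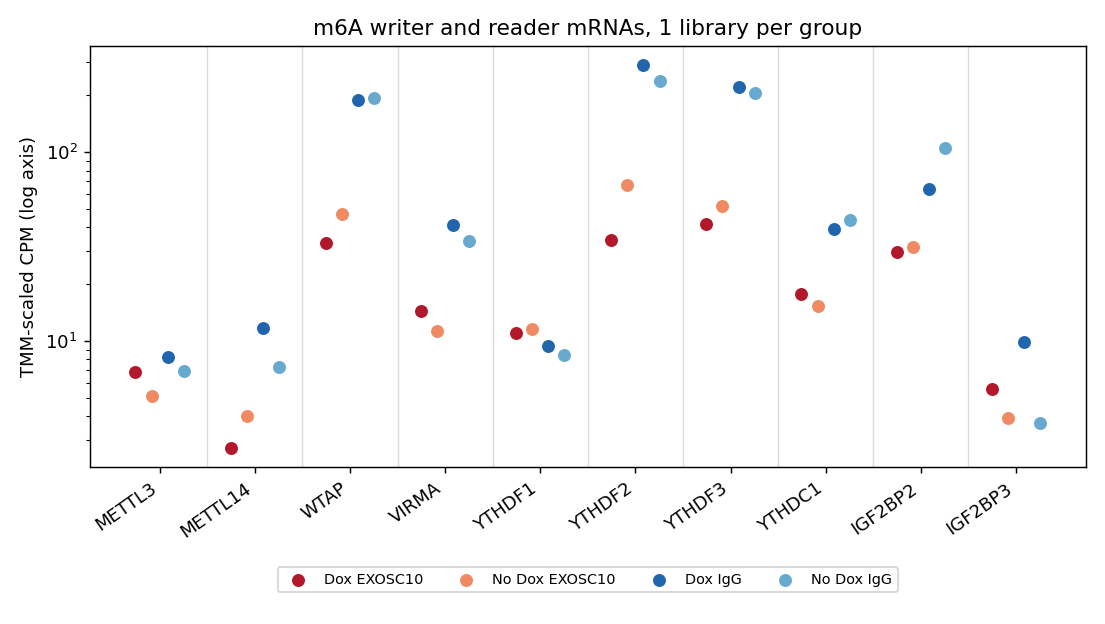
TMM-scaled CPM (log axis) of the 10 mRNAs, 1 point per library: doxycycline EXOSC10, untreated EXOSC10, doxycycline IgG and untreated IgG, with no error bars since each group is 1 library. YTHDF2 stood at 34.3 and 67.4 with EXOSC10 against 289 and 240 with IgG, while YTHDF1 stood at 11.01 and 11.6 against 9.36 and 8.39.

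In the primary comparison, the RNA recovered with EXOSC10 from doxycycline-treated against untreated cells, none of the 8 members with 100 reads reached 2-fold in either direction. Over all 6579 genes with 100 reads in this pair, 5.87% were at least 2-fold higher and 4.15% at least 2-fold lower. YTHDF2 came closest, with a log2 ratio of -0.97 (95% interval -1.18 to -0.77), and 4.68% of the genes tested lay below it. With median-of-ratios factors it passed 2-fold, at -1.07, whereas its entry with the most reads by itself turned to the other side of 0, at 0.12. By that single entry YTHDF3 was at -1.91 and IGF2BP2, on under 100 reads, at -4.08. The intervals of WTAP and YTHDF3 also lay wholly below 0: WTAP at -0.50 (-0.73 to -0.27) and YTHDF3 at -0.31 (-0.52 to -0.10). On the other side METTL3 stood at 0.40 (-0.21 to 1.09), VIRMA at 0.36 (-0.06 to 0.81) and YTHDC1 at 0.22 (-0.15 to 0.60), intervals that include equality. YTHDF1 at -0.08 (-0.51 to 0.37) and IGF2BP2 at -0.08 (-0.35 to 0.19) lay near the median of all genes, -0.05. Below 100 reads were IGF2BP3 at 0.49 and METTL14 at -0.53, and both of their intervals held 0. The members' median was -0.08 over these 8, beside -0.05 over all genes tested.

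These are exact Clopper-Pearson intervals on reads. They cover counting error only, and are too narrow where several reads stem from 1 molecule. As each group is 1 library, ratios between libraries have no check against replicates and are given without a p-value. There was no library of unprecipitated RNA among those analysed, so more binding and more of an mRNA in the cell cannot be told apart.

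With control IgG, doxycycline over untreated, 0 of the 6 members with 100 reads reached 2-fold in either direction, where 2.75% of the 3022 genes tested were that much higher and 3.77% that much lower. IGF2BP2 was lowest at -0.72 (-0.99 to -0.46), 1.65-fold lower. YTHDF2 was at 0.27 (0.13 to 0.42), on the other side of 0 from its EXOSC10 ratio. YTHDF3 at 0.09, WTAP at -0.04, VIRMA at 0.28 and YTHDC1 at -0.16 had intervals that include 0. IGF2BP3 had the highest ratio, 1.37 (0.35 to 2.61), but rested on 43.4 reads.

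**Figure D2:**
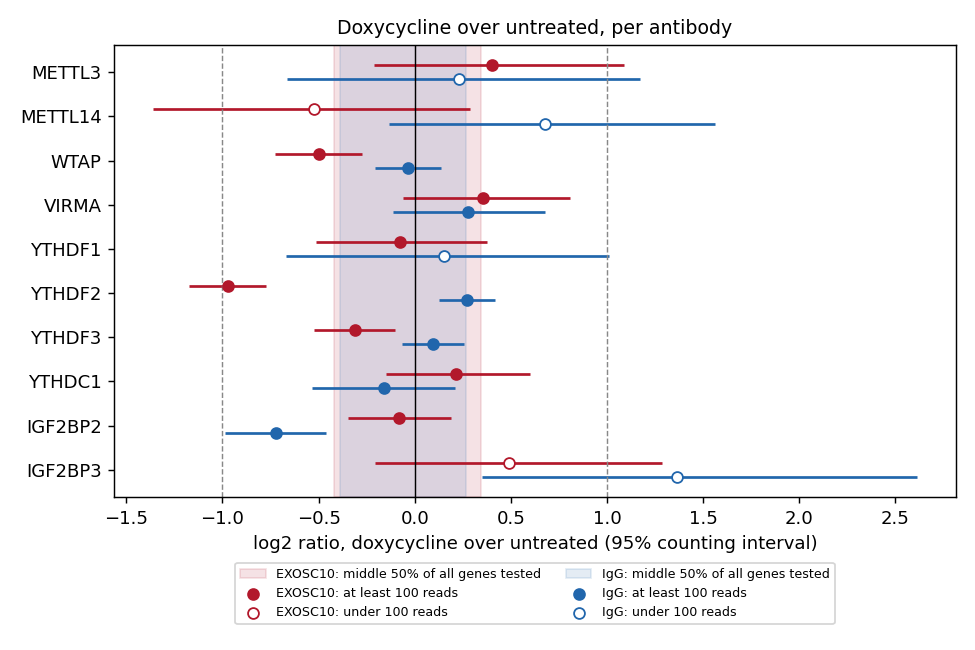
Log2 ratio of doxycycline over untreated (horizontal axis) for each mRNA, in the EXOSC10 libraries and in the IgG libraries. Bars are 95% counting intervals, open points rest on under 100 reads, shaded bands hold the middle 50% of all genes tested and dashed lines mark 2-fold. YTHDF2 lay at -0.97 with EXOSC10 and at 0.27 with IgG, with intervals that do not meet.

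Setting the EXOSC10 ratio against the IgG ratio gives the change of enrichment with doxycycline. YTHDF2 was the 1 member called of the 6 with 100 reads in each pair, at -1.24 (-1.49 to -0.998), 2.37-fold lower, where 10.9% of 2940 genes were at least 2-fold lower and 4.73% at least 2-fold higher. WTAP was at -0.46 (-0.74 to -0.18) and YTHDF3 at -0.40 (-0.67 to -0.14), while IGF2BP2 was at 0.64 (0.27 to 1.01). VIRMA at 0.08 and YTHDC1 at 0.38 had intervals that include 0. With total counts in place of TMM, the median of all genes stands at 1.52 rather than -0.14, and YTHDF2 at 0.43. By its entry with the most reads YTHDF2 was at -0.57, short of 2-fold. Intervals on opposite sides of 0 in the EXOSC10 and IgG comparisons were found in 1 of these 6 members, YTHDF2, and in 12.2% of the 2940 genes.

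A ratio between YTHDF paralogs within a library does not depend on scaling. YTHDF2 held 39.4% (95% exact binomial interval 36.7% to 42.3%) of YTHDF1, YTHDF2 and YTHDF3 reads in the doxycycline EXOSC10 library and 51.5% (47.7% to 55.3%) in the untreated EXOSC10 library, against 55.7% (53.4% to 58.1%) and 52.7% (49.8% to 55.6%) in the IgG libraries with and without doxycycline. Its reads were 0.823 (0.728 to 0.931) of those of YTHDF3 in the doxycycline EXOSC10 library, and 1.30 (1.11 to 1.53) of them in the untreated EXOSC10 library. In the IgG libraries the same quotient was 1.31 (1.19 to 1.45) with doxycycline and 1.16 (1.03 to 1.30) untreated. Summed over entries, the doxycycline EXOSC10 library was thus the only library of the 4 with fewer YTHDF2 than YTHDF3 reads. By the entry with the most reads of each gene, this order turned around. YTHDF2 then had 388 reads and YTHDF3 134 in the doxycycline EXOSC10 library, and 126 and 181 in the untreated EXOSC10 library. With IgG they had 535 and 666 reads with doxycycline, and 255 and 395 untreated.

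YTHDF1 held 12.7% (10.8% to 14.7%) and 8.88% (6.86% to 11.3%) of the family's reads with EXOSC10, with and without doxycycline, against 1.80% (1.24% to 2.53%) and 1.85% (1.16% to 2.78%) with IgG. The antibodies were apart by more than counting error, and the IgG libraries differed from each other by less. Within the writer complex, METTL3 held 12.02% (9.84% to 14.5%) and 7.65% (5.10% to 10.9%) of the 4 subunits' reads with EXOSC10, against 3.26% (2.18% to 4.68%) and 2.86% (1.71% to 4.47%) with IgG. WTAP held 57.9% (54.4% to 61.4%) and 69.7% (64.6% to 74.4%) with EXOSC10, against 75.7% (72.7% to 78.5%) and 80.2% (76.9% to 83.2%) with IgG. METTL14 held between 2.98% and 5.95% in the 4 libraries, with overlapping intervals. The share of IGF2BP3 in the reads of IGF2BP2 and IGF2BP3 was 15.8% and 11.1% with EXOSC10, against 13.4% and 3.40% with IgG, so the untreated IgG library stood below the other 3.

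The ratios of EXOSC10 over IgG compare each mRNA with its background in the control precipitate. In untreated cells, all 6 members with 100 reads were at least 2-fold lower with EXOSC10, where 36.8% of 3602 genes were lower and 4.97% higher. WTAP was at -2.05 (-2.28 to -1.83), YTHDF3 at -1.99 (-2.21 to -1.78), YTHDF2 at -1.83 (-2.02 to -1.64), IGF2BP2 at -1.74 (-2.03 to -1.46), VIRMA at -1.58 (-2.10 to -1.10) and YTHDC1 at -1.51 (-1.956 to -1.10). The 4 members without 100 reads in this pair were METTL14 at -0.83, METTL3 at -0.42, IGF2BP3 at 0.08 and YTHDF1 at 0.46, all with intervals that include 0. Their absence from the count above follows from depth, so that count does not stand for all 10.

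In doxycycline-treated cells the same 6 mRNAs were at least 2-fold lower among 9 with 100 reads, where 26.9% of 6269 genes were lower and 13.5% higher. YTHDF2 was lowest at -3.07 (-3.24 to -2.92), 8.39-fold lower, with 1.499% of the genes tested below it. WTAP followed at -2.51 (-2.70 to -2.35) and YTHDF3 at -2.40 (-2.56 to -2.25). VIRMA was 2.83-fold lower (log2 -1.83 to -1.19), YTHDC1 2.20-fold (-1.45 to -0.83) and IGF2BP2 2.14-fold (-1.34 to -0.86). IGF2BP3 was at -0.80 (-1.42 to -0.19), METTL3 at -0.25 (-0.87 to 0.41) and YTHDF1 at 0.23 (-0.32 to 0.83). METTL14, on 78 reads, was at -2.03 (-2.79 to -1.43).

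**Figure D3:**
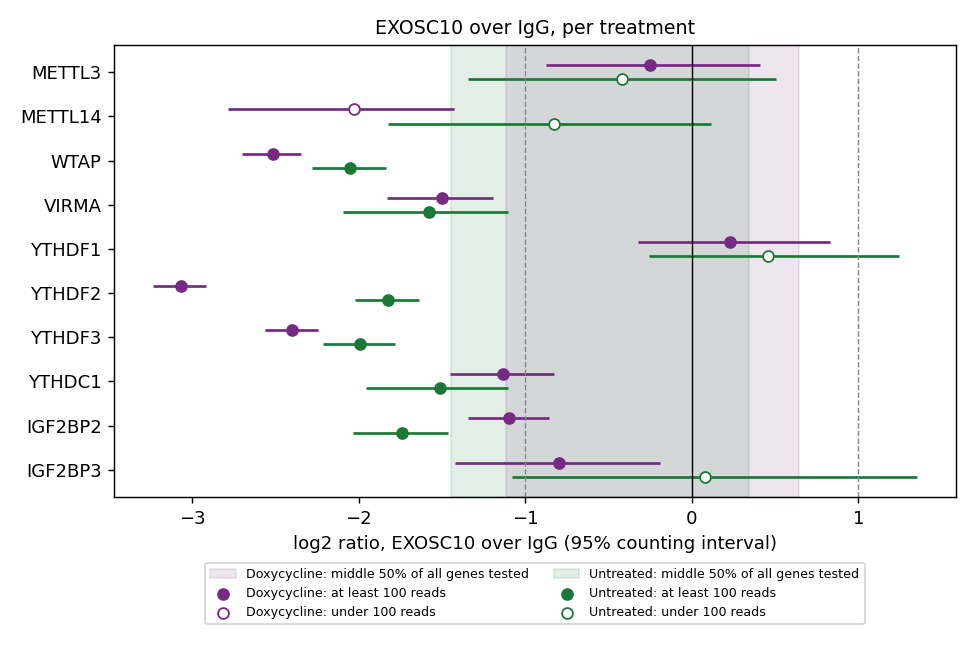
Log2 ratio of EXOSC10 over IgG (horizontal axis) for each mRNA in doxycycline-treated and in untreated cells. Bars are 95% counting intervals, open points rest on under 100 reads, shaded bands hold the middle 50% of all genes tested and dashed lines mark 2-fold. WTAP, YTHDF2 and YTHDF3 lay between -3.07 and -1.83, and YTHDF1 at 0.23 and 0.46.

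An additive limma fit over the 4 libraries, with treatment as covariate, tested the antibody in 9579 genes. It leaves 1 residual degree of freedom, and the treatments stand in for replicates. That residual is the change of enrichment with doxycycline given above, which the fit takes as noise, and limma also draws on the variance of other genes. The p-values thus do not measure a spread between replicates of a group. Of the 10 members, 6 were lower with EXOSC10 and 0 higher at an adjusted p of 0.05, where 16.1% of all genes were lower and 1.26% higher. These were WTAP at -2.28 ± 0.25 (SE; limma adjusted p = 0.00162), YTHDF3 at -2.20 ± 0.25 (0.00162), YTHDF2 at -2.45 ± 0.32 (0.00185), IGF2BP2 at -1.42 ± 0.28 (0.00798), VIRMA at -1.54 ± 0.30 (0.00823) and YTHDC1 at -1.32 ± 0.29 (0.0149). METTL14 at -1.43 ± 0.57 did not pass (limma adjusted p = 0.131), nor did METTL3 at -0.33 (0.667), IGF2BP3 at -0.36 (0.689) or YTHDF1 at 0.35 (0.586). Both EXOSC10 libraries lay below both IgG libraries in 8 of the 10 members, beside 29.4% of the genes tested. The calls rest on the fit's mean-variance trend: without it limma called 0 of the 10 members and 0 of all genes, with 2513 genes and 7 members at an unadjusted p under 0.05, and the adjusted p of these 6 ran from 0.121 to 0.154. They rest on TMM as well: with total counts limma called 0 members lower, and with totals outside ribosomal RNA 3 lower and 1 higher, YTHDF1 at 1.38 (limma adjusted p = 0.0317).

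In doxycycline-treated cells the sign of several members' EXOSC10 over IgG ratios rests on the scaling. In untreated cells the members' median was -1.78 with TMM, -0.97 with total counts and -0.74 with totals outside ribosomal RNA. With total counts the median of all genes in doxycycline-treated cells stood at 2.47, against 0.02 with TMM, and METTL3 (2.18), METTL14 (0.37), VIRMA (0.97), YTHDF3 (0.09), YTHDC1 (1.34), IGF2BP2 (1.38) and IGF2BP3 (1.63) turned to above 0. A scaling shifts all genes of a library nearly alike, so it barely moves the distance between the members' median and that of all genes. With TMM that distance was -1.15 in doxycycline-treated cells and -1.30 in untreated cells, against -1.13 and -1.30 with total counts. That distance was -1.85 with doxycycline by the entry with the most reads, and -0.45 in untreated cells with a minimum of 500 reads.

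The ratios differed with depth. Among the 805 non-ribosomal genes with 1000 to 3000 reads over the 4 libraries, which include WTAP, YTHDF2, YTHDF3 and IGF2BP2, the median EXOSC10 over IgG ratio was -1.06 with doxycycline and -0.91 untreated, and 50.9% of genes had a mean ratio at least 2-fold lower. Among the 2651 genes with 300 to 1000 reads, which include VIRMA and YTHDC1, the medians were -0.14 and -0.18. Among the 3778 genes with 100 to 300 reads, which include METTL3, METTL14, YTHDF1 and IGF2BP3, they were 0.32 and 0.21, and 12.3% of genes had a mean ratio at least 2-fold lower. YTHDF2, YTHDF3 and WTAP, the members with the most reads, had the lowest mean ratios of the 10, and METTL14 lay with the lower 12.3% of its class. The part of depth in the members' ratios was not tested.

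**Figure D4:**
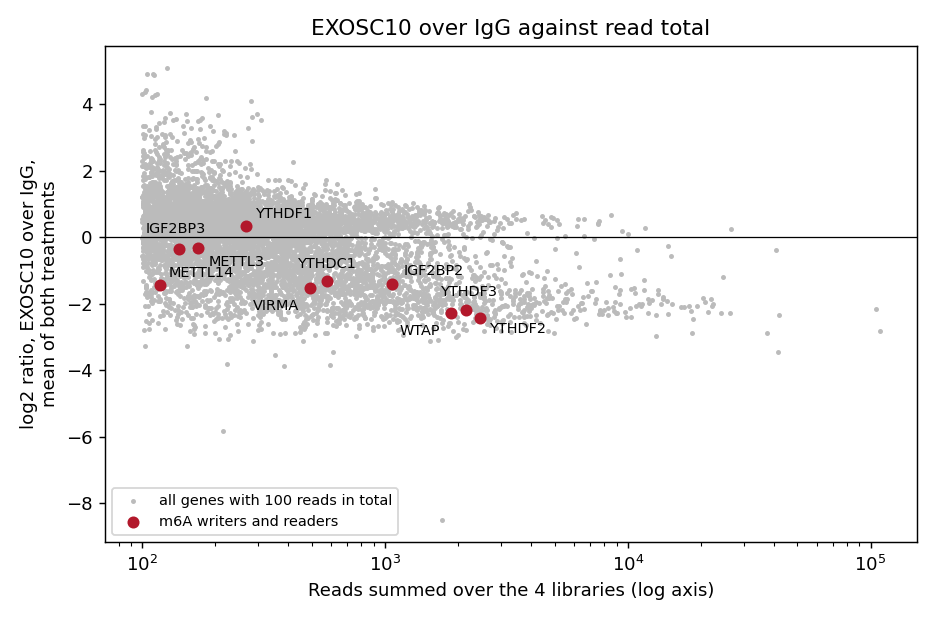
Mean log2 ratio of EXOSC10 over IgG in both treatments (vertical axis) against reads summed over the 4 libraries (log axis), 1 point per non-ribosomal gene with at least 100 reads, m6A writers and readers in red. Genes of high read total form an upper and a lower band, and WTAP, YTHDF2 and YTHDF3 sit in the lower band.

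Several members had more than 1 entry in the table, and reads were divided between these in very different ways. The entries carry no transcript name, so they are lettered here by total reads, and which transcript each stands for is not known. IGF2BP2 had 4 entries. Entry A held 0.0677 and 16.6 of its reads with EXOSC10, with and without doxycycline, against 178 and 260 with IgG. In shares this was 0.0163% and 10.0% with EXOSC10, against 81.6% and 94.3% with IgG. Entry B held 323 and 28.2 reads with EXOSC10, against 15.1 and 11.3 with IgG, and so led the doxycycline EXOSC10 library with 77.9%. In the untreated EXOSC10 library entry D led with 40.2%, followed by entry C with 32.7%.

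Between the antibodies, 85.9% of the reads of IGF2BP2 would have to change entry with doxycycline and 84.2% untreated, against 60.8% between the EXOSC10 libraries and 12.7% between the IgG libraries. Over the 1511 genes with several entries and 50 reads in every library, the medians were 22.5%, 21.2%, 20.1% and 12.7%, and 98.1% and 97.9% of these genes lay below IGF2BP2 in the antibody comparisons, and 89.1% between the EXOSC10 libraries. Among the 984 of them whose leading IgG entry held at least 50% of reads in both IgG libraries, 11.6% had that entry under 50% in both EXOSC10 libraries. Of the 4 members in this class (VIRMA, YTHDF3, YTHDC1 and IGF2BP2), IGF2BP2 was the 1 that did. The measure was chosen after the values were seen, and the fractions of reads in the entries show that reads were divided between the entries of a gene before deposition. Summed over entries, IGF2BP2 had whole reads to within 0.05 in all 4 libraries.

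RefSeq (GRCh38.p14) gives IGF2BP2 on chromosome 3, from 185643130 to 185825042, and lists 2 start windows for it, each 250 bases before to 50 after a start. They are shown because transcripts of this gene can begin at different places, although the deposited entries cannot be assigned to either. Capitals mark matches on either strand to GGGCGG (GC box), CCAAT or TATAAA, and both windows are on the minus strand, read 5′ to 3′ along the transcript. The first, chr3:185824993-185825292, has 80.7% G and C and 7 matches to GGGCGG, overlapping ones included. The second, chr3:185821093-185821392, has 35% G and C, 1 match to CCAAT and 1 to TATAAA.
IGF2BP2 upstream start: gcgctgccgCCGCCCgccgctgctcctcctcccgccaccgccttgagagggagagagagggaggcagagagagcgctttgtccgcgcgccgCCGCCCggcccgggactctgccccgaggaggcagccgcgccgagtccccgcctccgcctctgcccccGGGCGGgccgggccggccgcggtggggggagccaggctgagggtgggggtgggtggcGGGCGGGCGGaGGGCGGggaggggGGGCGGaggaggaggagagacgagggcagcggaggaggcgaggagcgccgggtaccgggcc
IGF2BP2 downstream start: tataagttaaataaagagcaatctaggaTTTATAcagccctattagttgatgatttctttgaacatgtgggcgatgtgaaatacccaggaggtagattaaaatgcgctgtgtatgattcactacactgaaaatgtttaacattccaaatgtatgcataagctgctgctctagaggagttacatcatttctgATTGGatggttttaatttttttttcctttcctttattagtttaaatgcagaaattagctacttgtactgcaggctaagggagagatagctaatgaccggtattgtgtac
Of all 35116 RefSeq windows of this length, 44.95% hold GGGCGG, 34.6% CCAAT and 11.5% TATAAA on either strand. A match is a description of letters and not a site.

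YTHDF3 had 7 entries, and its entry A held 23.1% and 66.4% of reads with EXOSC10, with and without doxycycline, against 88.3% and 72.9% with IgG. Between the EXOSC10 libraries 64.5% of its reads would have to change entry, a value that 90.3% of the 1511 genes lie below, against 18.1% between the IgG libraries. YTHDF2 had 3 entries, with entry A at 80.9% and 35.7% with EXOSC10, against 54.1% and 40.6% with IgG. Between the EXOSC10 libraries 45.2% of its reads would have to change entry, a value that 79.2% of the 1511 genes lie below. Between the antibodies 26.8% would have to with doxycycline and 4.91% untreated, with 55.7% and 19.2% of the genes below. Its entry B had 73.3 reads in the doxycycline EXOSC10 library and 198 in the untreated EXOSC10 library, while entry A had 388 and 126, and entry C had 18.4 and 29.8. WTAP had 4 entries, and its entry B held 53.9% and 53.2% with EXOSC10, with and without doxycycline, against 20.7% and 20.4% with IgG. Between the antibodies 33.2% of its reads would have to change entry with doxycycline and 40.2% untreated. Of the 1511 genes, 63.3% and 73.9% lie below these values. VIRMA was nearly all in its entry A, at 83.3% and 96.2% with EXOSC10 against 100% and 100% with IgG.

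**Figure D5:**
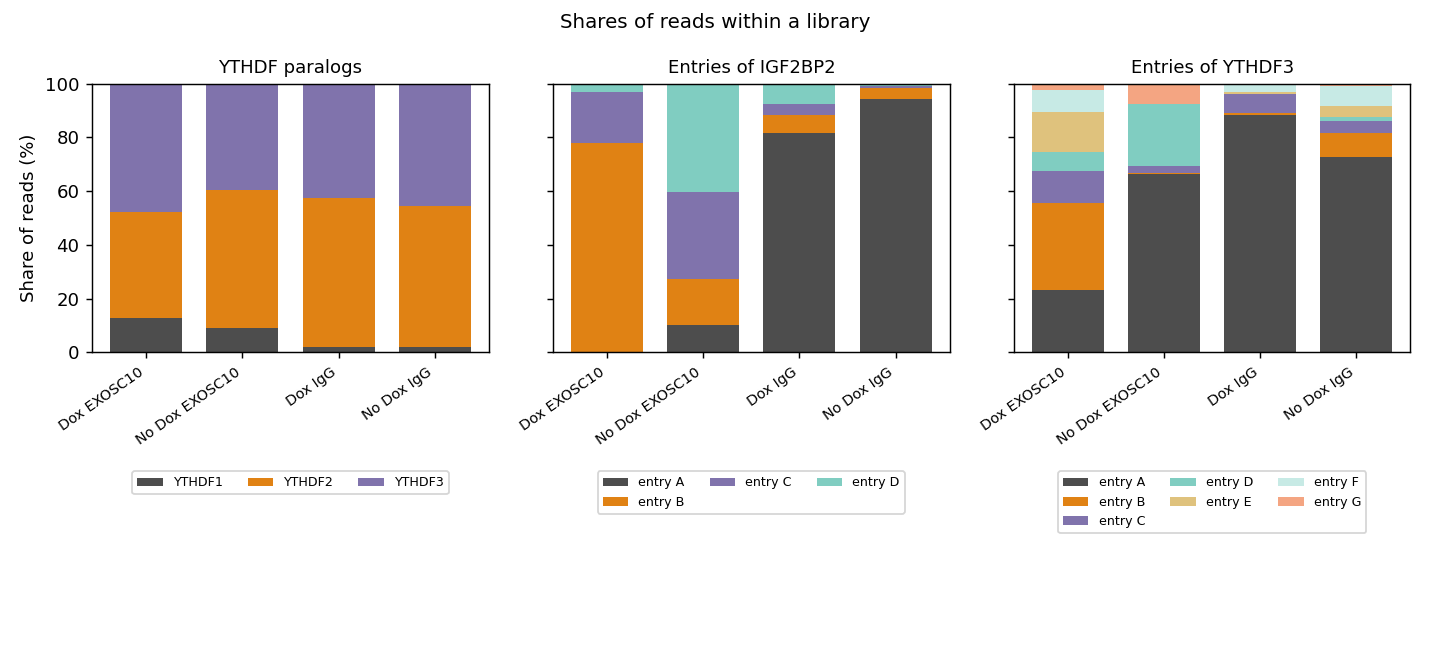
Share of reads within each library (vertical axis, percent) of the YTHDF paralogs, of the 4 entries of IGF2BP2 and of the 7 entries of YTHDF3, for doxycycline EXOSC10, untreated EXOSC10, doxycycline IgG and untreated IgG, 1 library each. YTHDF1 holds 12.7% and 8.88% with EXOSC10 against 1.80% and 1.85% with IgG, and entry A of IGF2BP2 0.0163% and 10.0% against 81.6% and 94.3%.

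The other members lie on chromosome 14 from 21498138 to 21511340 (METTL3), chromosome 4 from 118685392 to 118715430 (METTL14) and from 68310387 to 68350090 (YTHDC1), chromosome 6 from 159726693 to 159756319 (WTAP), chromosome 8 from 94487689 to 94553469 (VIRMA) and from 63168553 to 63212788 (YTHDF3), chromosome 20 from 63195429 to 63216131 (YTHDF1), chromosome 1 from 28736624 to 28769775 (YTHDF2) and chromosome 7 from 23310209 to 23470491 (IGF2BP3). The spans of METTL3, WTAP and IGF2BP3 overlap those of TOX4, SOD2 and MALSU1, and whether counting used strand is not given in the sources used here. Summed with SOD2, WTAP stayed lower with EXOSC10, at -1.98 with doxycycline and -1.69 untreated. Summed with TOX4, METTL3 was at -0.31 and -1.45, so a level of METTL3 by itself is less certain in untreated cells. Summed with MALSU1, the IgG ratio of IGF2BP3 was -0.14 rather than 1.37. The reads of IGF2BP3 and of MALSU1 were fractional in every library and added up to whole reads. A level, share or ratio of IGF2BP3 by itself is thus less certain too. YTHDF1, YTHDF2 and YTHDF3, and IGF2BP2 and IGF2BP3, are paralogs that can share reads where their sequences match.

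Beyond the members, 34 other genes were listed, and all 34 had entries. They were other writer subunits and RNA methyltransferases, erasers, other readers, and partners of the YTHDF and IGF2BP proteins in decay and translation. In the EXOSC10 libraries, doxycycline over untreated, 0 of 27 with 100 reads were at least 2-fold higher and 1 at least 2-fold lower, beside 5.87% and 4.15% of all genes tested, so the count lay near the background. The lower gene was CNOT1, the scaffold of the CCR4-NOT deadenylase that YTHDF2 recruits, with 687 reads with doxycycline and 577 untreated, a ratio of -1.16. CNOT2 of the same complex was at -0.60, the splicing factor SRSF3 at -0.46 and the poly(A)-binding protein PABPC1 at -0.41. Among other readers ELAVL1, an RNA-stabilising protein, was at -0.99, the fragile X protein FMR1 at -0.90, HNRNPA2B1 at -0.81 and PRRC2A at -0.63, and the median of 8 was -0.54. Among other writer subunits and RNA methyltransferases, RBM15, which brings the complex to its targets, was at -0.71, its paralog RBM15B at 0.53, METTL16 at 0.52 and the subunit ZC3H13 at 0.40, and the median of 6 was 0.35. The eraser FTO was at 0.98 and the eraser ALKBH5 at 0.14. With IgG, doxycycline over untreated, the ratio of CNOT1 was 0.79, of PRRC2A 0.73, of FMR1 0.36, of ELAVL1 0.29 and of HNRNPA2B1 0.12. These 5 of the 14 named genes thus had intervals below 0 with EXOSC10 and above 0 with IgG, as YTHDF2 did. Over all 2940 genes with 100 reads in each pair, 276 had intervals in these directions. The 14 were named by the size of their EXOSC10 ratio, which is part of this criterion, so their count cannot be set against that background. RBM15B, METTL16, ZC3H13 and FTO also had under 100 reads with IgG.

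For EXOSC10 over IgG, 16 of the 34 were lower and 0 higher in the limma fit at an adjusted p of 0.05, beside 16.1% and 1.26% of all genes. As for the members, these calls rest on the fit's trend, and they were made with TMM factors. The 16.1% is not matched for depth. A mean ratio at least 2-fold lower was found in 12.3% of non-ribosomal genes with 100 to 300 reads in total. It was found in 77.7% of those with 3000 or more. The part of depth in these calls was not tested. RBM15 was lower at -1.85 (limma adjusted p = 0.00504) while RBM15B was at 0.37 (0.581). FMR1 was at -2.04 (0.00338), CNOT1 at -2.84 (0.00241) and CNOT2 at -2.07 (0.00165). ALKBH5 was at -1.12 (0.0168) and FTO at 0.57 (0.520).

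By shape over the 4 libraries, the members with 50 reads in each (6 of 10) had a median profile of -1.002 and -0.83 with EXOSC10, with and without doxycycline, against 1.02 and 1.06 with IgG, in log2 scaled CPM around each gene's own mean. Of 2438 other genes, the closest were MATR3, which encodes a nuclear matrix protein, at a root mean square distance of 0.0768, NCOA2 (0.0772), SUMO2 (0.0778), DLG3 (0.0826) and COPS2 (0.0827), where the median gene lay at 0.544. The filter dropped METTL3, METTL14, YTHDF1 and IGF2BP3, which had under 50 reads in each IgG library. The 6 kept were those called lower with EXOSC10 in the limma fit. The profile and its nearest genes thus follow in part from this filter and do not stand for all 10. Within families, YTHDF2 and YTHDF3 lay 0.272 apart, while YTHDF1 lay 1.43 from YTHDF2 and 1.27 from YTHDF3. METTL3 and METTL14 lay 0.657 apart, WTAP and VIRMA 0.492, and IGF2BP2 and IGF2BP3 0.931.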

How the data were processed

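The authors deposited 1 table of CPM (reads scaled to a common library total) with a constant of 0.0001 on each value, as read from its column sums, although its name says raw counts. STAR and Partek with genome build hg38 are named per the submitters' processing notes, without versions; the sources used here do not give the counting rule or strand setting. The 24015 entries were summed to 12838 symbols after the constant was taken off. Reads are CPM over the step of the low values, and between 67.6% and 74.0% of symbols came within 0.05 of a whole read per library, so no count model was used. TMM trimmed 30% of ratios and 5% of levels at each end. Ratios used log2(CPM + 0.2), which understates changes of low genes, and 100 reads in the libraries compared. The antibody test was limma 3.58.1 (R 4.3.3) on genes with 10 reads in at least 2 libraries, tested on simulated data, with Benjamini-Hochberg adjustment. Samples were grouped by title. Members and lists were chosen with earlier results of these data known. All 10 members are named, plus up to 4 genes of each other list by the size of the EXOSC10 doxycycline ratio among those with 100 reads, and the 5 genes of nearest profile. Alternatives covered scaling, pseudocount, read minimum, entries, thinning and the limma trend and filter.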

Additional observations from a re-analysis of the deposited data

Results flagged for a closer look

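With TMM and summed entries, the mRNA of YTHDF2 moved in opposite directions with doxycycline in the libraries of the antibodies. Both counting intervals were clear of 0: -0.97 on the log2 scale with EXOSC10 and 0.27 with IgG. The change of enrichment was -1.24, and 6.53% of the 2940 genes compared lay lower. It was not alone in this: 359 of these genes (12.2%) had such opposite intervals, 276 of them below 0 with EXOSC10 and above 0 with IgG. Among the other named genes, from the lists of m6A genes and of decay and translation partners, the same held for CNOT1 (change of enrichment -1.955), PRRC2A (-1.37), ELAVL1 (-1.28), FMR1 (-1.26) and HNRNPA2B1 (-0.92). Those genes were named by the size of their EXOSC10 doxycycline ratio, which is part of this criterion. None of these differences was tested, since each group is 1 library. With total counts the change of YTHDF2 was 0.43, where the median of all genes was 1.52, and by its entry with the most reads it was -0.57. The EXOSC10 ratio of YTHDF2 itself turned to above 0 in both, at 0.06 with total counts and 0.12 by that entry. Its direction with EXOSC10 thus depends on these choices. The share of YTHDF2 in YTHDF reads, which no scaling touches, was 39.4% and 51.5% with EXOSC10, with and without doxycycline, against 55.7% and 52.7% with IgG. By the entry with the most reads of each gene, YTHDF2 had more reads than YTHDF3 in the doxycycline EXOSC10 library and fewer in the others.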

How the results depend on the processing

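With total counts, doxycycline over untreated gave a members' median of 0.95 and 3 members 2-fold higher with EXOSC10, and -0.61 and 1 lower with IgG. EXOSC10 over IgG then gave 1.34 with 5 higher and 0 lower in doxycycline-treated cells, where METTL3 (2.18), METTL14 (0.37), VIRMA (0.97), YTHDF3 (0.088), YTHDC1 (1.34), IGF2BP2 (1.38) and IGF2BP3 (1.63) turned sign, and -0.97 with 3 lower in untreated cells. The change of enrichment gave 1.502 with 5 higher and 0 lower, and YTHDF2 turned to 0.43. In limma 0 members were lower, and METTL3 (1.27), METTL14 (0.17), VIRMA (0.10), YTHDC1 (0.32), IGF2BP2 (0.23) and IGF2BP3 (1.24) turned sign. With totals outside ribosomal RNA, EXOSC10 over IgG gave -0.081 with 1 higher and 3 lower in doxycycline-treated cells and -0.74 with 1 lower in untreated cells. In limma 3 were lower and 1 higher, and METTL3 (0.69) and IGF2BP3 (0.65) turned sign. Scaling alone moved these values.

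In the EXOSC10 doxycycline comparison, median-of-ratios factors gave 1 member lower, YTHDF2 (-1.07). The entry with the most reads gave 1 other, YTHDF3 (-1.91), and turned YTHDF2 to 0.12. Upper-quartile factors gave 4 lower rather than 6 for EXOSC10 over IgG with doxycycline. That single entry gave medians of -1.79 in doxycycline-treated cells, -1.85 from all genes, and -0.66 for the change of enrichment, -0.44 from all genes, with 3 members lower in limma. Limma without a trend gave 0 lower. A minimum of 20 reads gave distances from all genes of -1.58 in doxycycline-treated and -1.58 in untreated cells, 1 member higher in the IgG doxycycline comparison and 2 lower in the change of enrichment. A minimum of 500 reads tested fewer genes and gave medians of -0.41 for EXOSC10 doxycycline and -2.46 for EXOSC10 over IgG with doxycycline, and 3 lower and a distance of -0.45 untreated. Libraries thinned to equal reads outside ribosomal RNA gave -1.85 in doxycycline-treated cells, -1.49 from all genes. Beyond changes of scaling, the cause of these shifts was not tested. Sums with overlapping genes and other minima for the entry shares were added after the data were seen. The labels carry no replicate numbers to pair libraries by. Libraries were paired by treatment only, in the limma fit, which compares the antibodies within each treatment.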
